A study of Mus musculus with 4 samples.

Results

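The replication-dependent histone genes were followed as a family in 4 RNA-seq libraries of mouse embryonic fibroblasts (MEF). Members were the protein-coding genes of the mm10 annotation with symbols starting Hist1h, Hist2h, Hist3h or Hist4h. There were 67 of them, and 63 had a transcript of their own in the RPKM table, which covered 20708 protein-coding genes in all. RPKM counts the reads of a transcript for each kilobase of length and for a fixed number of mapped reads. The other 4 genes, Hist1h2ad with Hist1h3d and Hist2h2aa1 with Hist2h3c1, shared a read-through transcript with a neighbour and were kept apart. Of the 63 genes, 49 had a mean of at least 1 RPKM over the 4 libraries, as did 10100 of the protein-coding genes.

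The MEF came from C57BL/6 embryos at embryonic day 15.5, from the body after head, limbs, tail and inner organs were removed, and were immortalized with simian virus 40. Hmga2+/+ cells carried both copies of Hmga2, which encodes an architectural chromatin protein, and Hmga2-/- cells carried none. All cells were first starved overnight in medium with 1% FCS. They then received water (Ctrl) or 10 ng/ml human recombinant TGFB1, a cytokine that activates fibroblasts, for 24 h. The study used these libraries to ask how the transcription that TGFB1 induces depends on Hmga2. How many embryos or independent lines stood behind each genotype is not given in the sources used here. Each of the 4 conditions had 1 library, so no difference had a replicate check, no test was possible, and each ratio compares libraries and not conditions. The 4 comparisons share libraries, each of which enters 2 of them.

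Histones package DNA. Pairs of H2A with H2B and of H3 with H4 build the nucleosome core, and H1 binds the linker DNA between nucleosomes. Most histone protein is needed during S phase, when DNA is copied, and the genes that supply it lie in clusters and lack introns. Their mRNAs end in a conserved stem-loop in place of a poly(A) tail, which the stem-loop binding protein SLBP and the U7 snRNP use for cleavage of the 3′ end. The libraries were made from total RNA with no poly(A) selection, so that mRNAs of this kind could be read.

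The stem-loop is the sequence feature that sets these mRNAs apart. It is shown for the highest gene of each histone type that has one annotated and for some other genes described below. Each form found appears at least once. The capitals mark the stem, the loop and the returning stem, 16 bases in all, with 5 flanking bases on each side. Positions are in GRCm38 (mm10), and sequences were read from the GENCODE vM21 transcripts on the strand of the gene.
Hist1h1e (chr13:23621777-23621802, minus strand): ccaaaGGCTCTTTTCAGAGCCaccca
Hist2h2ac (chr3:96220413-96220438, minus strand): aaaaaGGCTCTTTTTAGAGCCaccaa
Hist1h2bm (chr13:21722501-21722526, plus strand): acaaaGGCTCTTTTCAGAGCCactaa
Hist1h3c (chr13:23745042-23745067, minus strand): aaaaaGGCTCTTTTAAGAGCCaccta
Hist1h4d (chr13:23581945-23581970, plus strand): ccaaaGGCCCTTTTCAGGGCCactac
Hist1h2bk (chr13:22036295-22036320, plus strand): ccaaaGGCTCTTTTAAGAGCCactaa
Hist1h2ac (chr13:23683472-23683497, minus strand): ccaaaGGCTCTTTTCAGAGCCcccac
Hist1h4j (chr13:21735432-21735457, plus strand): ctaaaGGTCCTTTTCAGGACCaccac
Hist2h2aa2 (chr3:96239779-96239804, minus strand): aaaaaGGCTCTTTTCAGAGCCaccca
Hist2h4 (chr3:96262934-96262959, minus strand): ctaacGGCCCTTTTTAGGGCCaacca

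The search looked for 6 stem bases, a loop of 4 bases starting TT and the pairing stem, with GG as the first 2 bases, within 100 bases after the stop codon. Of the 67 genes, 42 had at least 75 annotated bases there, and 37 of these held a match. Among 44 matches over all 67 genes, 26 had the form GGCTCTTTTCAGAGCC and 7 had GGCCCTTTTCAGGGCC. A further 6 read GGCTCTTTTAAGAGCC, 2 read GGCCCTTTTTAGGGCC, 2 read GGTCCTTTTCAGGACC and 1, in Hist2h2ac, read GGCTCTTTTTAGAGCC. The stem began between 21 and 58 bases after the stop codon, with a median of 31. Forms with GGCC stems, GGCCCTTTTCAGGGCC and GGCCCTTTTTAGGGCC, stood in H4 genes. The 5 genes with at least 75 bases and no match were Hist1h2bq, Hist1h2br, Hist1h3g, Hist1h4a and Hist2h2be. For the other 25 genes the annotation ended too early for this count, Hist2h2bb among them.

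Promoters are shown for 4 genes: Hist2h2ac, the highest H2A gene, Hist1h2bk, the H2B gene with the largest log2 ratio of TGFB1 over Ctrl among those with a mean of at least 1 RPKM, Hist1h1e, the highest H1 gene, and Hist1h4d, the highest H4 gene. Each runs from 250 bases before to 50 after the RefSeq start (GRCm38.p6). Capitals mark the letters of the CCAAT box, of the TATA box (TATAAA) and of the octamer ATTTGCAT, on either strand and anywhere in the window. The octamer is bound by the factor OCT1 and is known from H2B promoters. A match need not act as a box of the gene shown. None of the 3 motifs contains another.
Hist2h2ac (chr3:96220831-96221130, minus strand): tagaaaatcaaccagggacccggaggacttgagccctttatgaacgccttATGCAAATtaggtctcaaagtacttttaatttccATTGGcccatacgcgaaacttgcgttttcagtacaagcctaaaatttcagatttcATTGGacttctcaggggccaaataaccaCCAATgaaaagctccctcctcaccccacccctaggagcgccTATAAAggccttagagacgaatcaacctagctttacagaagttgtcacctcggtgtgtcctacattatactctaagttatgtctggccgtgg
Hist1h2bk (chr13:22035571-22035870, plus strand): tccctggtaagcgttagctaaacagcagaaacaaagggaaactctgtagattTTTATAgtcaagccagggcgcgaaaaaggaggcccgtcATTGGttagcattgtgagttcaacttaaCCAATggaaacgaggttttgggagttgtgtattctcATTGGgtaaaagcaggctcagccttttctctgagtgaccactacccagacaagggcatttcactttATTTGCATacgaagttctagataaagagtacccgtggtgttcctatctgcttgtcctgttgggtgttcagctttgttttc
Hist1h1e (chr13:23622509-23622808, minus strand): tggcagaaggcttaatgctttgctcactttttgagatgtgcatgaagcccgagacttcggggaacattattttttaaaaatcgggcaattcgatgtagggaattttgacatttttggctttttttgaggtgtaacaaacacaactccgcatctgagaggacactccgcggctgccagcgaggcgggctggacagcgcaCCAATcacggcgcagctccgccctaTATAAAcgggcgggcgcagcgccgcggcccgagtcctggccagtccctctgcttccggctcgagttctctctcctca
Hist1h4d (chr13:23581318-23581617, plus strand): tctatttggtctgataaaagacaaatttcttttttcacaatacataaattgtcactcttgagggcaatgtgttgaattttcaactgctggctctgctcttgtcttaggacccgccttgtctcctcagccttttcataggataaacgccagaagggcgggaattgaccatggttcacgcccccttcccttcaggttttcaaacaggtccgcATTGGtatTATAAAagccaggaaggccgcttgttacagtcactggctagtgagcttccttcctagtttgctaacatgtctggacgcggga

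RefSeq held a promoter for 62 of the 67 genes. CCAAT was in all 6 H1, all 18 H2A, all 16 H2B and all 10 H3 promoters, and in 3 of 12 H4 promoters. Among 32851 mouse promoters of the same length it was in 37.4%. TATAAA was in 35 of the 62, against 13.6% of all promoters. The octamer was in 7 H2A and 6 H2B promoters and in none of the H1, H3 or H4 promoters, against 1.74% of all promoters. The H2A and H2B genes often lie head to head and their windows then overlap, so that one match of any of the 3 motifs can be counted for both. The promoter of Hist1h2bk overlaps that of Hist1h2ah, which lies 177 bases away on the opposite strand. The capitals TTTATA shown for Hist1h2bk are the TATAAA of the Hist1h2ah window read on the other strand. A match in these windows is a description of letters, and no binding was measured here.

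The depth was 56143000 mapped reads for the Hmga2+/+ Ctrl library, 57296000 for Hmga2+/+ TGFB1, 56613000 for Hmga2-/- Ctrl and 56944000 for Hmga2-/- TGFB1. These numbers were derived from the steps between low RPKM values, at which all tested values lay within 0.1 of a whole read. For a transcript of 500 bases, a usual length here, 1 read was worth between 0.0349 and 0.0356 RPKM and 3 reads between 0.105 and 0.107 RPKM. Intervals below are 95% exact (Clopper-Pearson) intervals of a ratio of reads and cover counting error only. Hmga2 itself had 14.8 RPKM in Hmga2+/+ Ctrl, 40.7 in Hmga2+/+ TGFB1 and 0 in both Hmga2-/- libraries. Fibroblast genes (8 markers) summed to between 2384 and 2943 RPKM, 4 epithelial markers to between 0.403 and 1.04 RPKM, and the 3 muscle markers were at 0 in all 4 libraries. The 3 germ cell markers summed to between 0.081 and 0.485 RPKM, the 3 blood markers to between 1.26 and 1.63, and the endothelial markers to between 1.14 and 7.45, nearly all from Kdr.

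RNA of histone genes was found in all 4 libraries, at very uneven levels. The 63 genes together took 57656 reads in Hmga2+/+ Ctrl, 58394 in Hmga2+/+ TGFB1, 61347 in Hmga2-/- Ctrl and 55913 in Hmga2-/- TGFB1. The highest library was thus Hmga2-/- Ctrl and the lowest Hmga2-/- TGFB1, at similar depths. Levels of single genes ran from a mean of 0.004 RPKM (Hist1h2br) to 342 RPKM (Hist2h2bb), with a median of 7.32 RPKM. In every type the highest 3 genes held most of the summed RPKM, from 60.1% in H4 to 83.4% in H2B.

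**Figure D1:**
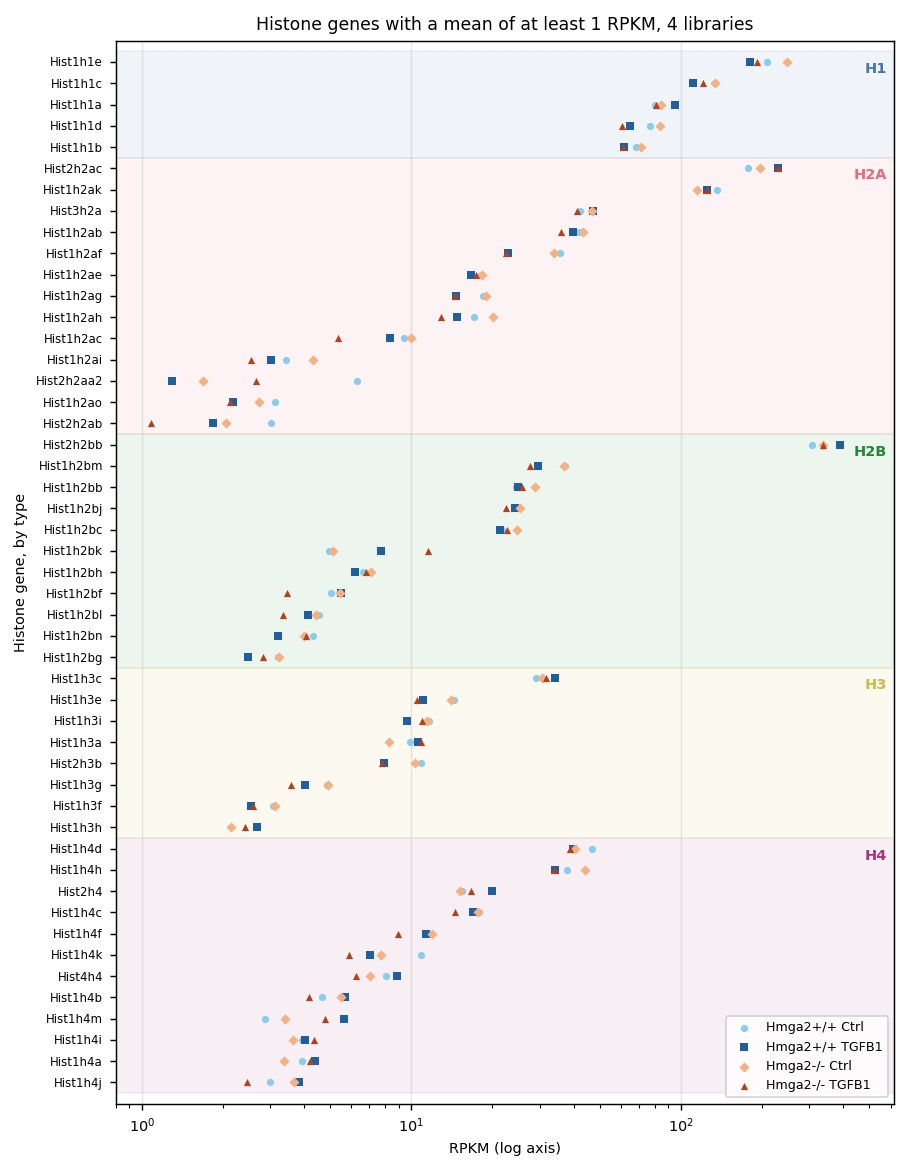
RPKM (log axis) of the 49 histone genes with a mean of at least 1 RPKM, ordered by type and level, with 1 point for each of the 4 libraries. For most genes the 4 points lie close together, whereas the points of Hist2h2aa2 spread from 1.29 to 6.32 RPKM.

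H1 genes encode the linker histones, and 5 of the 6 were at high levels. Hist1h1e had 208 RPKM in Hmga2+/+ Ctrl, 180.0 in Hmga2+/+ TGFB1, 248 in Hmga2-/- Ctrl and 191 in Hmga2-/- TGFB1. Hist1h1c had 134, 111, 134 and 121 RPKM in the same order, and Hist1h1a 80.3, 95.3, 84.3 and 80.6 RPKM. Hist1h1e and Hist1h1c were lower with TGFB1 in both genotypes, while Hist1h1a was higher with TGFB1 in Hmga2+/+ MEF. Hist1h1d (mean 71.5 RPKM) and Hist1h1b (65.6 RPKM) completed the group. Hist1h1t, the H1 gene of spermatocytes, stayed between 0.024 and 0.167 RPKM.

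Among H2A genes, Hist2h2ac and Hist1h2ak stood far above the others. Hist2h2ac had 178 RPKM in Hmga2+/+ Ctrl, 229 in Hmga2+/+ TGFB1, 197 in Hmga2-/- Ctrl and 230.3 in Hmga2-/- TGFB1. Hist1h2ak had 137, 125, 115 and 125 RPKM. Hist3h2a, from the small cluster on chromosome 11, had 42.3, 47.4, 46.6 and 41.3 RPKM. The other 10 H2A genes above 1 RPKM had means from 1.9998 RPKM (Hist2h2ab) to 40.2 RPKM (Hist1h2ab).

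H2B levels were dominated by a single gene. Hist2h2bb had 307 RPKM in Hmga2+/+ Ctrl, 388 in Hmga2+/+ TGFB1, 337 in Hmga2-/- Ctrl and 336 in Hmga2-/- TGFB1. Its transcript lies on chromosome 3 from 96269700 to 96270192 on the plus strand, inside a longer predicted gene of the same strand, Gm42743, and reads of these 2 genes cannot be told apart. Next came Hist1h2bm with 37.2, 29.6, 36.9 and 27.5 RPKM and Hist1h2bb with 24.4, 24.9, 28.7 and 25.8 RPKM. The testis gene Hist1h2ba was at 0 in 3 libraries and at 0.041 RPKM in Hmga2-/- TGFB1, and its H2A neighbour Hist1h2aa lay between 0.039 and 0.156 RPKM.

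The median gene had 6.78 RPKM in H3 and 7.54 RPKM in H4, beside 4.01 RPKM in H2B and 12.2 RPKM in H2A. Hist1h3c had 28.9 RPKM in Hmga2+/+ Ctrl, 34.2 in Hmga2+/+ TGFB1, 30.6 in Hmga2-/- Ctrl and 31.5 in Hmga2-/- TGFB1. Hist1h3e followed with 14.4, 11.1, 14.1 and 10.5 RPKM and Hist1h3i with 11.6, 9.67, 11.4 and 10.9 RPKM. In H4, Hist1h4d had 46.9, 39.9, 40.6 and 38.8 RPKM, Hist1h4h 37.8, 34.2, 44.1 and 33.9 RPKM, and Hist2h4 15.5, 19.9, 15.2 and 16.6 RPKM. Hist4h4, the single gene on chromosome 6, had 8.05, 8.85, 7.06 and 6.21 RPKM. Hist2h3b, the H3 gene of the chromosome 3 cluster with a mean above 1 RPKM, had 10.8, 7.91, 10.3 and 7.78 RPKM.

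Summed by type, the RPKM of the 63 genes were uneven, with the 4 read-through genes left out. The types also differ in how much sequence their genes share with other genes, as described below. The part of this in the sums was not tested. H1 reached 568 RPKM in Hmga2+/+ Ctrl, 513 in Hmga2+/+ TGFB1, 621 in Hmga2-/- Ctrl and 514 in Hmga2-/- TGFB1. H2A summed to 515, 527, 514 and 514 RPKM and H2B to 448, 519.9, 486 and 469 RPKM. H3 summed to 87.4, 83.7, 86.0 and 81.4 RPKM and H4 to 167, 162, 164 and 145 RPKM. The H2A sum was thus higher than those of H3 and H4 in all 4 libraries. For H2B this rested on Hist2h2bb, without which its sum was 140.3, 132, 148 and 133 RPKM, above H3 and below H4 in each library. The summed H1 RPKM was 0.903-fold with TGFB1 in Hmga2+/+ MEF (log2 -0.15, interval of the reads -0.17 to -0.12) and 0.828-fold in Hmga2-/- MEF (log2 -0.27, interval -0.30 to -0.25). With median ratio scaling these log2 ratios were -0.055 and -0.22. The H2B sum was 1.16-fold in Hmga2+/+ MEF (log2 0.22) and turned to a log2 ratio of -0.09 without Hist2h2bb. The log2 ratios of the H3 and H4 sums in Hmga2+/+ MEF, -0.06 and -0.04, changed sign to 0.03 and 0.05 when libraries were rescaled by their median ratio. No sum changed by 1.5-fold in any comparison.

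**Figure D2:**
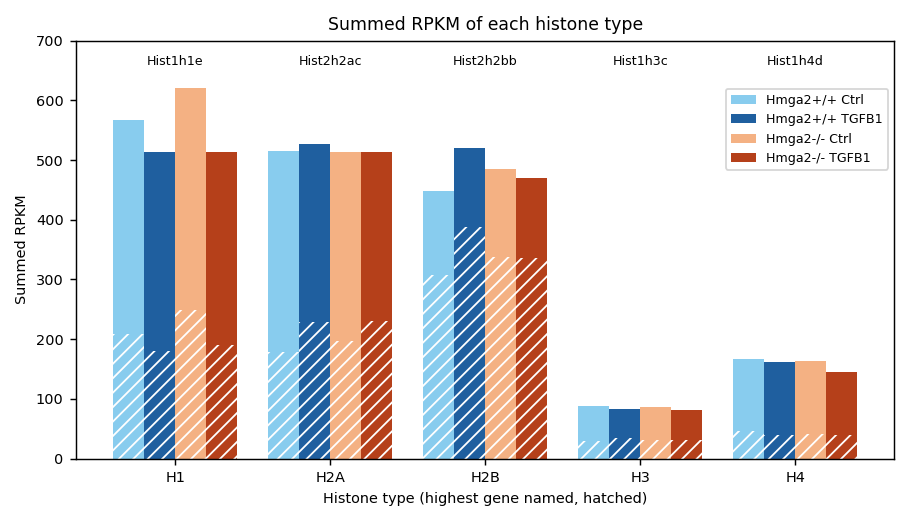
Summed RPKM of the 63 histone genes by type, with 1 bar for each of the 4 libraries and the part of the highest gene hatched at the base. Hist2h2bb makes up 71.2% of the H2B sum as a mean over libraries, and the H1 bars run from 513 to 621 RPKM.

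Much of the family is nearly the same sequence, which bears on how reads could be placed. Reads were at most 70 bases after the first 5 of 75 were trimmed, so windows of 70 bases of each gene's annotated exons were searched in the transcripts of all other genes. A median of 48.8% of a gene's windows occurred elsewhere. By type the median was 7.94% in H1, 66.0% in H2A, 48.8% in H2B, 65.6% in H3 and 46.7% in H4. In 8 genes no window was shared, among them Hist1h1a, Hist1h1b, Hist2h4, Hist4h4 and Hist2h2bb, and in 31 of the 63 more than 50% were. Genes that overlap at the same locus were left out of this search, so the value for Hist2h2bb does not cover Gm42743. Genes with more than 50% shared had a median of 4.35 RPKM and the others 13.8 RPKM, but the 6 H1 genes, with a median of 78.3 RPKM, were all among the others. Within H2B the medians were 4.12 and 0.95 RPKM, within H3 6.78 and 6.37 RPKM, within H2A 5.79 and 31.0 RPKM and within H4 4.59 and 10.9 RPKM. The study's methods name HOMER tag libraries with default settings. How reads with several places were counted is not stated in the sources used here. The part of shared sequence in these levels, and in the sums by type, was not tested.

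Copies that are almost identical had unlike values. Hist1h2ao had a mean of 2.55 RPKM and Hist1h2ap 0.185 RPKM, with 99.5% and 92.7% of their windows shared. Hist1h4m had 4.17 RPKM and Hist1h4n 0.06 RPKM, with 89.2% and 99.3% shared. Hist1h2bq had 0.559 RPKM and Hist1h2br 0.004 RPKM. In each pair the reads of one copy cannot be assigned to it with certainty.

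**Figure D3:**
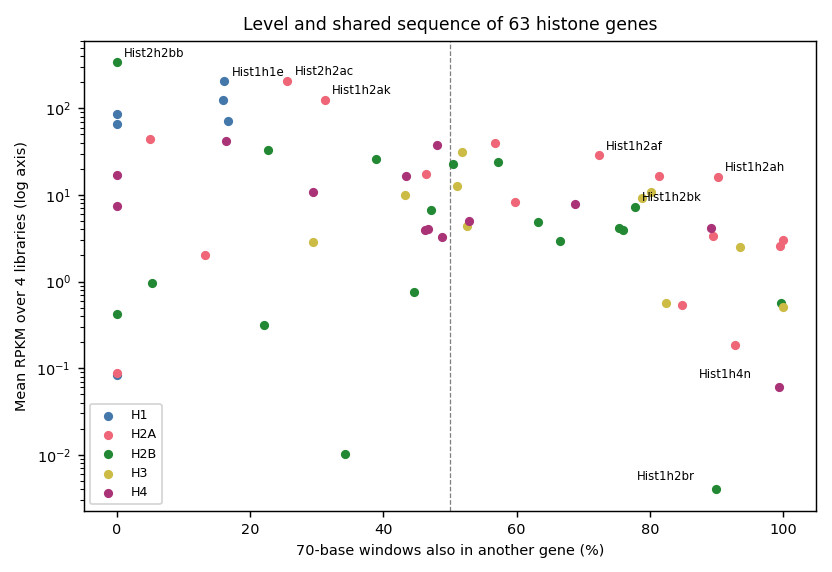
Mean RPKM over the 4 libraries (log axis) against the percentage of 70-base windows also found in another gene, with 1 point for each of the 63 genes and a dashed line at 50%. The genes above 100 RPKM share at most 31.2% of their windows, and genes overlapping at the same locus, such as Gm42743 for Hist2h2bb, were not searched.

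Levels also differed by position. The 52 Hist1 genes with own transcripts fell into 4 blocks on chromosome 13, separated by more than 150 kb. The block from 23531044 to 23764412 held 27 genes, of which 24 had at least 1 RPKM, and summed to 824 RPKM as a mean over libraries, with a median gene at 12.5 RPKM. The first block, from 21715713 to 21837530, held 18 genes with a median of 3.28 RPKM and a sum of 268 RPKM, of which Hist1h2ak made up 125. A block of 5 genes from 22035122 to 22043658 summed to 68.4 RPKM. The last block, from 23933725 to 23934913, consisted of the testis genes Hist1h2aa and Hist1h2ba and summed to 0.0978 RPKM. Outside Hist1, the 8 Hist2 genes with own transcripts had means from 0.423 to 342 RPKM.

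Among the genes with a transcript of their own, an H2A and an H2B gene lay head to head in 11 places, with 167 to 305 bases between their transcripts. Hist1h2bf and Hist1h2ad also lie head to head but were not counted, because Hist1h2ad shares its transcript with Hist1h3d. The H2A gene was the higher one in 7 of the 11 pairs. Hist2h2ac had a mean of 208 RPKM and its partner Hist2h2be, 191 bases away, 0.423 RPKM over a long annotated transcript of 2666 bases. Hist1h2ak had 125 RPKM and Hist1h2bn, 210 bases away, 3.90 RPKM, whereas Hist1h2bl and Hist1h2ai had 4.12 and 3.32 RPKM. Members of a pair thus ranged from near equal to 492-fold apart. In Hist1h2bn 76.0% of the windows were shared and in Hist1h2ak 31.2%.

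**Figure D4:**
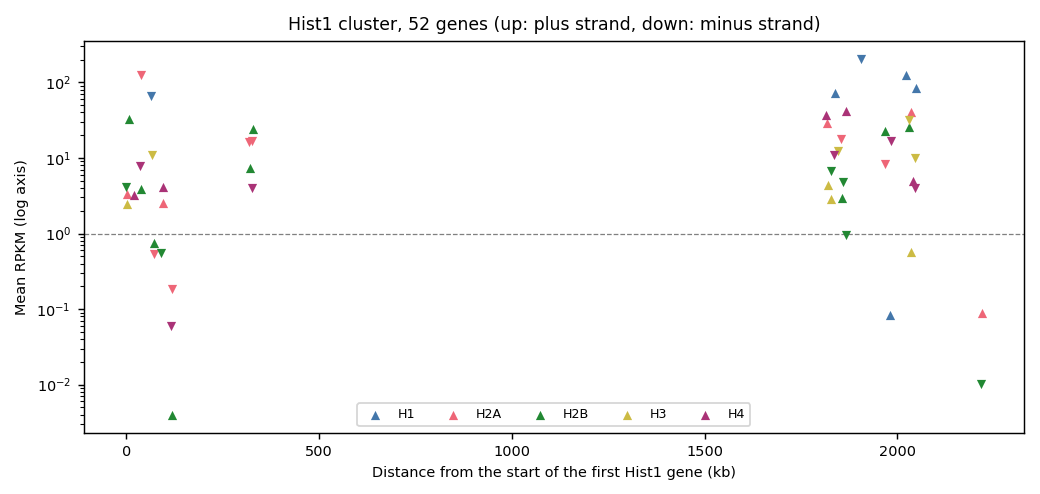
Mean RPKM over the 4 libraries (log axis) of 52 Hist1 genes against distance in kb from the start of the first gene on chromosome 13, coloured by type, with triangles pointing up for the plus strand and down for the minus strand and a dashed line at 1 RPKM. The long block of 27 genes holds most of the genes above 10 RPKM, and the last block holds 2 genes below 0.1 RPKM.

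TGFB1 left most histone genes within 1.5-fold (a log2 ratio of 0.58) of Ctrl in Hmga2+/+ MEF. Of the 49 genes above 1 RPKM, 2 (4.08%) were at least 1.5-fold higher and 4 (8.16%) at least 1.5-fold lower, and 43 were within that range. Among all 10100 protein-coding genes above 1 RPKM, 11.2% were at least 1.5-fold higher and 15.3% at least 1.5-fold lower. The median log2 ratio was -0.13 over the histone genes and -0.04 over all these genes. Ratios were below 0 in 32 of the 49 and in 5382 of the 10100. Counting intervals lay wholly below 0 for 18 of the 49 and wholly above 0 for 8, a count not made over all genes.

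Hist1h4m, an H4 gene, rose with TGFB1 from 2.87 to 5.62 RPKM (65 and 130 reads, log2 0.97, interval 0.53 to 1.42). Hist1h2bk, an H2B gene whose stem-loop is of the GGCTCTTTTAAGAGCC form, rose from 4.96 to 7.70 RPKM (139 and 220 reads, log2 0.63, interval 0.32 to 0.95). The third rank belonged to Hist2h4 at a log2 ratio of 0.36, within 1.5-fold. In the other direction, Hist2h2aa2 fell from 6.32 to 1.29 RPKM (211 and 44 reads, log2 -2.29, interval -2.79 to -1.82), and 100% of its windows occur in Hist2h2aa1. Hist2h2ab fell from 3.02 to 1.84 RPKM (log2 -0.72, interval -1.28 to -0.17), Hist1h2af from 35.7 to 22.8 RPKM (log2 -0.65, interval -0.80 to -0.50) and Hist1h4k from 10.9 to 7.01 RPKM (log2 -0.63, interval -0.93 to -0.34). With libraries rescaled by their median ratio, Hist1h2af at -0.55 and Hist1h4k at -0.54 no longer passed 1.5-fold. Of the 4 genes that fell, 3 encode H2A. Of the 6 genes past 1.5-fold, 5 had more than 50% of their windows shared, the exception being Hist2h2ab with 13.3%, while 24 of all 49 genes did.

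In Hmga2-/- MEF, 41 of the 49 genes were within 1.5-fold, as were 7432 of all 10100 protein-coding genes. With TGFB1, 2 of the 49 genes (4.08%) were at least 1.5-fold higher and 6 (12.2%) at least 1.5-fold lower, against 12.7% and 13.7% of all protein-coding genes. The share of lower genes was thus near that of all genes. The median log2 ratio was -0.21 over the histone genes and 0.02 over all genes. Ratios were below 0 in 37 of the 49 and in 4877 of all 10100 genes. Counting intervals lay wholly below 0 for 25 of the 49 and wholly above 0 for 6, again not counted over all genes.

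Hist1h2bk rose with TGFB1 from 5.13 to 11.5 RPKM (145 and 327 reads, log2 1.16, interval 0.88 to 1.46) in Hmga2-/- MEF and was the one gene past 1.5-fold upward in both genotypes. Its 4 values were 4.96 and 5.13 RPKM in the Ctrl libraries and 7.70 and 11.5 RPKM in the TGFB1 libraries. Its head-to-head neighbour Hist1h2ah went the other way, from 20.0 to 12.9 RPKM in Hmga2-/- MEF (log2 -0.63, interval -0.82 to -0.44) and from 17.1 to 14.7 RPKM in Hmga2+/+ MEF (log2 -0.22). In both of these genes most windows are shared, 77.7% in Hist1h2bk and 90.2% in Hist1h2ah. Hist1h4m had 3.41 RPKM in Ctrl and 4.78 RPKM with TGFB1 in Hmga2-/- MEF (log2 0.49, interval 0.06 to 0.93), which is within 1.5-fold.

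Hist2h2ab fell from 2.06 to 1.08 RPKM in Hmga2-/- MEF (51 and 27 reads, log2 -0.93, interval -1.66 to -0.23) and was the one gene past 1.5-fold downward in both genotypes. Hist1h2ac fell from 9.96 to 5.35 RPKM (log2 -0.90, interval -1.20 to -0.60) and Hist1h2ai from 4.31 to 2.55 RPKM (log2 -0.75, interval -1.22 to -0.30). Hist1h2bf fell from 5.42 to 3.47 RPKM (log2 -0.64) and Hist1h4j from 3.68 to 2.46 RPKM (log2 -0.59). Hist1h2af went from 33.7 to 22.5 RPKM (log2 -0.58, interval -0.73 to -0.43), just inside 1.5-fold, beside 35.7 and 22.8 RPKM in Hmga2+/+ MEF. With median ratio scaling, Hist1h4j at -0.53 and Hist1h2ah at -0.58 no longer passed 1.5-fold, which left 4 lower genes. Of the 8 genes past 1.5-fold here, 6 had more than 50% of their windows shared, beside 24 of all 49. Over both genotypes, 29 of the 49 genes had log2 ratios below 0 in each and 9 above 0 in each. The share of all protein-coding genes with the same direction in both genotypes was not counted, so these numbers have no background.

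**Figure D5:**
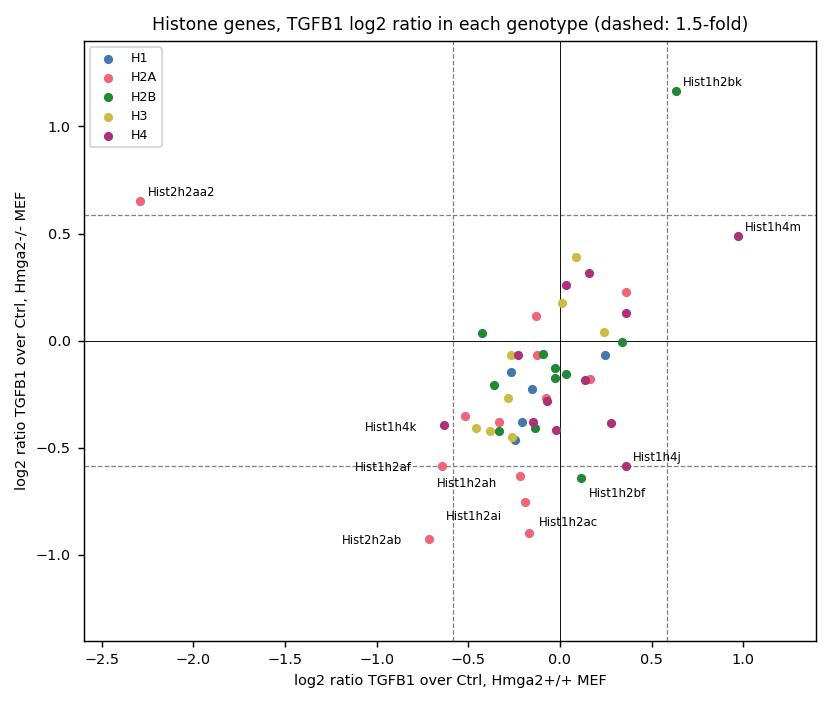
Log2 ratio of TGFB1 over Ctrl in Hmga2+/+ MEF (x axis) and Hmga2-/- MEF (y axis) for the 49 histone genes with a mean of at least 1 RPKM, coloured by type, with dashed lines at 1.5-fold. Of the 49 genes, 38 lie between the dashed lines on both axes and 29 below 0 on both, counts not made over all genes. Hist1h2bk lies past 1.5-fold upward on both axes and Hist2h2aa2 at -2.29 and 0.65.

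By type, H1 had no gene past 1.5-fold in any comparison, and all 5 H1 genes above 1 RPKM were below 0 in Hmga2-/- MEF. Of all 10100 protein-coding genes, 4877 had a TGFB1 ratio below 0 in Hmga2-/- MEF. The number was 5382 for Hmga2+/+ MEF. Most of the 10100 also stayed within 1.5-fold on TGFB1, 7421 in Hmga2+/+ cells and 7432 in Hmga2-/- cells. Between genotypes, 9795 did so in Ctrl and 9692 with TGFB1. The largest H1 difference was that of Hist1h1d, from 83.6 to 60.7 RPKM with TGFB1 in Hmga2-/- MEF (log2 -0.46, interval -0.53 to -0.39). In H2A, 11 of 13 genes were below 0 in Hmga2+/+ and 10 of 13 in Hmga2-/- MEF, with medians of -0.19 and -0.35. In H2B the medians were -0.03 and -0.16. No H3 gene passed 1.5-fold in any comparison, with medians of -0.27 and -0.17 on TGFB1. With 5 H1 and 8 H3 genes, a count of 0 past 1.5-fold does not set these types apart from all genes. Whether the signs by type differ from those of all genes was not tested. H4 had a median of 0.09 in Hmga2+/+ MEF and -0.23 in Hmga2-/- MEF.

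Without TGFB1, the genotypes were close. In the Hmga2-/- Ctrl library 0 of the 49 genes were at least 1.5-fold higher and 1 at least 1.5-fold lower than in the Hmga2+/+ Ctrl library, against 1.87% and 1.15% of all protein-coding genes. The median log2 ratio was 0.02 over the histone genes and -0.02 over all genes. The gene past 1.5-fold was Hist2h2aa2, at 1.69 against 6.32 RPKM (log2 -1.90, interval -2.35 to -1.47). Next lowest were Hist2h2ab (log2 -0.55) and Hist1h4k (log2 -0.49), and highest were Hist1h2ai (log2 0.33), Hist1h4j (log2 0.30) and Hist1h1e (log2 0.25, interval 0.21 to 0.29). Counting intervals lay wholly below 0 for 6 of the 49 genes and wholly above 0 for 10, a count not made over all genes.

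With TGFB1, 1 of the 49 genes was at least 1.5-fold higher and 4 were at least 1.5-fold lower in Hmga2-/- relative to Hmga2+/+ MEF, against 2.55% and 1.49% of all protein-coding genes. The higher gene was again Hist2h2aa2, at 2.66 against 1.29 RPKM (log2 1.04, interval 0.51 to 1.60). Hist1h2bk was next at a log2 ratio of 0.58, just inside 1.5-fold, followed by Hist1h2bn at 0.35 (interval -0.09 to 0.79). The lower genes were Hist2h2ab (1.08 against 1.84 RPKM, log2 -0.76, interval -1.50 to -0.04), Hist1h2bf (3.47 against 5.48 RPKM, log2 -0.66), Hist1h4j (2.46 against 3.85 RPKM, log2 -0.65) and Hist1h2ac (5.35 against 8.33 RPKM, log2 -0.64). These 4 genes belong to H2A, H2B and H4. The median log2 ratio was -0.08 over the histone genes and 0.04 over all genes.

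The TGFB1 log2 ratio of each gene in Hmga2-/- MEF minus that in Hmga2+/+ MEF had a median of -0.13 over the 49 histone genes and 0.04 over all 10100 genes. It was at least 0.58 in 1 histone gene and at most -0.58 in 4, against 1.59% and 1.14% of all genes. The 4 genes were Hist1h4j (-0.94), Hist1h2bf (-0.76), Hist1h2ac (-0.73) and Hist1h4b (-0.66), and the 1 gene was Hist2h2aa2 (2.94). In Hist1h4b the 4 values were 4.68 and 5.67 RPKM in Hmga2+/+ Ctrl and TGFB1 and 5.47 and 4.18 RPKM in Hmga2-/- Ctrl and TGFB1. These differences rest on single libraries and were not tested.

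The 14 genes with a mean below 1 RPKM ran from 0.004 to 0.95 RPKM, and the lowest gene above that limit, Hist2h2ab, had 1.9998 RPKM. Hist1h2be (1.16, 0.794, 1.16 and 0.686 RPKM) and Hist1h2bp (1.02, 0.532, 0.986 and 0.446 RPKM) were the highest of them. Several transcripts were annotated for 5 histone genes, each represented by its longest. With the shortest transcript, or that with the highest mean RPKM, 51 genes and not 49 reached 1 RPKM. The read-through transcript over Hist1h2ad and Hist1h3d had 3.17, 2.38, 2.94 and 2.68 RPKM, and the one over Hist2h2aa1 and Hist2h3c1 had 0.471, 0.535, 0.588 and 0.827 RPKM. Hist2h2aa2 carries the same windows as Hist2h2aa1. The read-through transcript over Hist2h2aa1 has 31.0% of its span in that gene, so its values are not those of Hist2h2aa1 alone. How reads were placed between the copies was not tested.

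Genes that make and handle histone mRNA mostly stayed within 1.5-fold. Of the 14 genes for histone pre-mRNA processing and transcription above 1 RPKM, 1 was at least 1.5-fold higher and 1 at least 1.5-fold lower with TGFB1 in each genotype. Of all protein-coding genes, 11.2% were higher and 15.3% lower in Hmga2+/+ MEF, and 12.7% and 13.7% in Hmga2-/- MEF. Slbp had 52.2 RPKM in Hmga2+/+ Ctrl, 37.8 in Hmga2+/+ TGFB1, 44.9 in Hmga2-/- Ctrl and 40.4 in Hmga2-/- TGFB1, within 1.5-fold. Lsm10, a subunit of the U7 snRNP, fell from 3.37 to 1.80 RPKM in Hmga2+/+ (log2 -0.90) and from 2.79 to 1.81 RPKM in Hmga2-/- MEF (log2 -0.62). Cstf2, a cleavage factor subunit, rose from 13.3 to 21.6 RPKM in Hmga2+/+ MEF (log2 0.69). In Hmga2-/- MEF it rose from 13.6 to 20.2 RPKM (log2 0.57), just inside 1.5-fold. Cpsf2, another, rose from 16.8 to 25.9 RPKM in Hmga2-/- MEF (log2 0.62). In Hmga2+/+ MEF it rose from 16.7 to 24.7 RPKM (log2 0.57), also just inside. None of 7 histone chaperone and supply genes passed 1.5-fold, and Nasp had 23.5, 25.5, 22.8 and 23.4 RPKM.

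S phase genes, which mark DNA replication, mostly stayed within 1.5-fold with TGFB1. Among 20 of them 0 passed 1.5-fold in Hmga2+/+ MEF, against 11.2% higher and 15.3% lower of all protein-coding genes. In Hmga2-/- MEF 1 of the 20 did, against 12.7% and 13.7%. It was Rrm2, for a subunit of ribonucleotide reductase, which rose from 33.1 to 55.3 RPKM (log2 0.74). Pcna, the replication clamp, had 109.95, 98.8, 102 and 106 RPKM. The median log2 ratio of the 20 genes was -0.02 in Hmga2+/+ and 0.05 in Hmga2-/- MEF, beside -0.13 and -0.21 over the 49 histone genes. The summed RPKM of all 63 histone genes was 1.01-fold with TGFB1 in Hmga2+/+ MEF and 0.921-fold in Hmga2-/- MEF, and that of the core histones was 1.06-fold and 0.968-fold. In Hmga2+/+ MEF the median gene was thus lower and the summed RPKM was not, while the reads of all 63 had a log2 ratio of -0.01 (interval -0.03 to 0.01). In bulk RNA, a different number of cells in S phase and a different amount of histone mRNA per cell cannot be told apart.

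The 11 replication-independent and polyadenylated histone genes supply histones and variants also outside S phase. In each genotype 4 of the 11 were at least 1.5-fold lower with TGFB1, against 15.3% of all protein-coding genes in Hmga2+/+ and 13.7% in Hmga2-/- MEF, and in Hmga2+/+ MEF 1 was at least 1.5-fold higher, against 11.2%. H1fx, a linker variant, fell from 29.7 to 14.0 RPKM in Hmga2+/+ (log2 -1.09) and from 27.8 to 13.2 RPKM in Hmga2-/- MEF (log2 -1.08). H2afv and H2afy2, for H2A.Z.2 and macroH2A2, fell by 1.04 and 1.07 on the log2 scale in Hmga2+/+ and by 1.24 and 1.24 in Hmga2-/- MEF. H3f3a, for H3.3, fell by 0.76 and 0.86 on the log2 scale. H2afj rose from 4.58 to 7.34 RPKM in Hmga2+/+ MEF (log2 0.68) and from 6.84 to 8.34 RPKM in Hmga2-/- MEF (log2 0.29). H2afx, the source of the H2A.X studied for its phosphorylation, had 28.6, 25.8, 24.3 and 23.9 RPKM, all within 1.5-fold. None of the 11 passed 1.5-fold between genotypes, in Ctrl or with TGFB1, though H2afj in Ctrl was just inside it (log2 0.58). Of all protein-coding genes, 1.87% were higher and 1.15% lower in Ctrl, and 2.55% and 1.49% with TGFB1.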

How the data were processed

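Total RNA of the 4 cultures was made into SMARTer stranded libraries and sequenced as single reads of 75 bases. Per the labels and the study's methods, the authors trimmed reads with Trimmomatic (the first 5 bases were dropped), mapped them to mm10 with HISAT2 2.1.0 and counted reads by strand with HOMER on the known genes of UCSC. The deposited values are RPKM for 63759 transcripts, with each length. The header names exons as the counted feature and the methods name genes. Whether duplicate cultures were pooled is not given in the sources used here.

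Transcripts were named by an overlap of at least 50% with a GENCODE vM21 gene (57708 named), a histone gene having priority, and the longest transcript stood for a gene. Values of 0 RPKM were set to 0.001 in ratios. Calls were ratios past 1.5-fold among genes with a mean of at least 1 RPKM. Genes were named in the text by rank of level and of change. The members and lists were chosen with earlier results of these data known. Genes most alike in pattern over 4 libraries were not sought, because a correlation over so few samples is not informative. The code for calls and intervals was run on simulated reads with counting error only. Such a run cannot show how the calls hold up against variation between cultures or libraries. Python 3.11.15, numpy 2.4.6, pandas 2.3.3, scipy 1.17.1 and matplotlib 3.10.9 were used. Of the alternatives in the closing section, 9 were planned and 2 were chosen after seeing the data.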

Additional observations from a re-analysis of the deposited data

Results flagged for a closer look

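Hist2h2aa2 was the histone gene whose TGFB1 ratio pointed past 1.5-fold in opposite directions in the 2 genotypes. It had 6.32 RPKM in Hmga2+/+ Ctrl, 1.29 in Hmga2+/+ TGFB1, 1.69 in Hmga2-/- Ctrl and 2.66 in Hmga2-/- TGFB1, from 211, 44, 57 and 90 reads. The difference of the log2 ratios was 2.94, with 1 library per condition, and it was not tested. All of its 70-base windows are found in Hist2h2aa1, whose transcript runs into Hist2h3c1 and had 0.471, 0.535, 0.588 and 0.827 RPKM, and the part of this shared sequence in the difference was not tested.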

How the results depend on the processing

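Counts of histone genes past 1.5-fold are small and moved easily. In the order TGFB1 over Ctrl in Hmga2+/+ MEF, the same in Hmga2-/- MEF, Hmga2-/- over Hmga2+/+ in Ctrl, and the same with TGFB1, the counts in the report were 2, 2, 0 and 1 higher and 4, 6, 1 and 4 lower. With a pseudocount of 1, they were 1 higher and 2 lower in Hmga2+/+ MEF, 1 and 2 in Hmga2-/- MEF, and 0 lower between genotypes with TGFB1. Without the filter they were 5 and 7, 7 and 10, and 3 and 5, with 3 higher in the last comparison, and the genotype difference was at least 0.58 in 7 genes. With a mean of at least 0.1 RPKM they were 2 and 6 in Hmga2+/+ MEF, 3 and 9 in Hmga2-/- MEF and 1 and 4 between genotypes in Ctrl, and the genotype difference was at least 0.58 in 5 genes. At a 2-fold threshold they were 0 and 1 in Hmga2+/+ MEF and 1 and 0 in Hmga2-/- MEF, and 0 genes were lower between genotypes with TGFB1 or in the genotype difference. With median ratio scaling 2 were lower in Hmga2+/+ MEF, where Hist1h2af and Hist1h4k no longer passed, and 4 in Hmga2-/- MEF, where Hist1h4j and Hist1h2ah no longer passed. With the shortest transcript, or that with the highest mean RPKM, the genotype difference was at least 0.58 in 2 genes. With only the genes that share at most 50% of their windows they were 0 and 1, 0 and 2, with 0 lower in Ctrl, 0 and 2 with TGFB1, and 0 and 1 for the genotype difference. The cause of these moves was not tested, beyond the smaller or larger number of genes counted. The median log2 ratios moved by at most 0.1 under every alternative run.

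With median ratio scaling, the log2 ratio of the summed RPKM for TGFB1 over Ctrl in Hmga2+/+ MEF was -0.055 for H1, 0.12 for H2A, 0.31 for H2B, 0.030 for H3 and 0.048 for H4. In Hmga2-/- MEF it was -0.22 for H1, 0.054 for H2A and 0.0041 for H2B, and between genotypes in Ctrl it was 0.16 for H1. This scaling shifts all genes by at most 0.09 on the log2 scale. With only the genes that share at most 50% of their windows, the H2A sum had log2 ratios of 0.15 in Hmga2+/+ and 0.13 in Hmga2-/- MEF, the H2B sum 0.25 in Hmga2+/+ MEF, and the H3 sum 0.24 in Hmga2-/- MEF and -0.19 between genotypes in Ctrl. Without Hist2h2bb the H2B sum had log2 ratios of -0.090, -0.16, 0.082 and 0.015 in the 4 comparisons. With a pseudocount of 1, Hist2h2aa2 had log2 ratios of -1.68 in Hmga2+/+ MEF and -1.44 between genotypes in Ctrl. The log2 ratios of single genes past 1.5-fold kept their sign under all alternatives run, but these alternatives could not have reversed them. A pseudocount does not change the sign of a ratio, and the scaling shift is far smaller than these ratios. Each of these genes has 1 transcript, so the choice of transcript changes nothing.

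No paired analysis was possible because each condition had 1 library, and leaving out a library leaves no comparison. Depth limits the low genes: a transcript of 500 bases at 1 RPKM has 28.1 to 28.6 reads per library.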
